A study of Mus musculus with 24 samples.

Results

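The comparison described here asks whether gastric reflux changed the oesophageal transcriptome differently in mice without Nrf2 and in wild-type mice. It is a difference of differences on the log2 scale, (Nrf2-/- with gastric reflux minus Nrf2-/- without reflux) minus (wild type with gastric reflux minus wild type without reflux). It uses 12 of the 24 arrays of the series, 3 in each of 4 groups: Nrf2-/- mice after 4 weeks of gastric reflux, Nrf2-/- mice without reflux, wild-type mice after 4 weeks of gastric reflux, and wild-type mice without reflux. All were labelled as male C57BL/6J mice aged 12 weeks. The labels disagree on the tissue, naming whole oesophagus in some fields and oesophageal epithelium in others, and arrays of 1 group are described as biological replicates. How reflux was produced, whether the mice without reflux had surgery and which part of the gene the null allele lacks were not stated in the sources used here. Each array compared oesophageal RNA in the dye Cy5 with a reference RNA from 11 mouse cell lines in Cy3, so a value is log2 of Cy5 over Cy3 and its precision is limited by the number of arrays. A positive interaction means that gastric reflux moved a gene further upwards, or less far downwards, in Nrf2-/- mice than in wild-type mice.

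Nrf2, encoded by Nfe2l2, is a transcription factor that Keap1 keeps low until oxidants or electrophiles modify Keap1. It then binds antioxidant response elements with small Maf partners and switches on glutathione, quinone reductase and thioredoxin genes. The mouse oesophagus is lined by a stratified squamous epithelium that divides in its basal layer, over a stroma of fibroblasts and vessels and a coat of mostly striated muscle. In bulk tissue, fewer cells of a type and less RNA per cell cannot be told apart.

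Several arrays stood apart. The first Nrf2-/- gastric array had a median Cy5 intensity of 88.2, against 165 to 249 for the other arrays of these groups scanned with the same software version, and correlated at 0.734 and 0.777 with the others of its group. The second Nrf2-/- gastric array went against its label of male: Ddx3y, on the Y chromosome, was at -4.20 there and at 0.73 to 1.35 on the other arrays. Xist was at -0.02 there and at -0.78 to -0.26 on the others. Its probe was not well above background on any wild-type array without reflux, so Xist separates the arrays only weakly. The label of the second Nrf2-/- gastric array was kept. Without this array 127 genes passed in place of 362, and 13 of the 41 called genes named here did. The first 2 wild-type arrays without reflux lay on a slide read with an older software version and had median Cy5 of 103 and 81.8. Of their spots, 13% and 11.8% were left out as outliers, so many bright genes of that group rest on 1 or 2 arrays. Genes said here to rest on 1 array of that group were measured on the third. Some genes listed without this remark also rest on 1 array. On the third array some pancreatic genes were high and others were not. Scan day followed the groups: the wild-type gastric arrays were scanned on day 2 and the Nrf2-/- gastric arrays on day 3. Of the arrays without reflux, only the third of each genotype shared a day with its gastric group. The squamous keratin Krt13 and the skeletal actin Acta1 were well above background on all 12 arrays, so epithelium and muscle were both present. Nfe2l2 lay at -3.06, -3.72 and -3.81 in Nrf2-/- gastric, at -2.86, -3.35 and -3.63 in Nrf2-/- without reflux, at 1.96, 1.45 and 1.62 in wild-type gastric, and at 1.71 on the 1 wild-type array without reflux that measured it. The genotypes did not overlap, and the interaction was -0.22 ± 0.41 (standard error, SE; adjusted p = 0.788).

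For most genes with an interaction, the difference with gastric reflux had opposite signs in the genotypes. Of 20531 genes tested, 212 had a positive and 150 a negative interaction in limma at an adjusted p under 0.05, which is 1.76% of those tested, 1.03% positive and 0.731% negative. Of the 212, 208 had a positive difference with gastric reflux in Nrf2-/- mice and a negative one in wild type. Of the 150, 148 had the reverse pattern. These are signs and not calls: 24 of the 212 passed within Nrf2-/- and 89 within wild type, and of the 150, 12 and 90 did. Taken alone, gastric reflux changed 119 genes in Nrf2-/- mice (0.58%) and 846 in wild type (4.12%). The genotypes differed in 3617 genes under gastric reflux (17.6%) and in 35 without reflux (0.17%). These comparisons share arrays, so their counts are not independent. Under gastric reflux, here and in the lists below, genotype and scan day cannot be told apart, since wild type was scanned on day 2 and Nrf2-/- on day 3. The comparison without reflux includes the 2 wild-type arrays read with the older software version. An unadjusted p under 0.05 was reached by 4416 genes, 12.2% of all tested with a positive and 9.34% with a negative value. With muscle and scan day in the fit these shares were 4.64% and 5.78%. With only the 12 arrays in the fit, 0 genes passed and 3408 had an unadjusted p under 0.05. When arrays were centred on their medians without loess, 260 genes were positive and 1356 negative, and the median of all genes was -0.42 in place of 0.06. A call thus depends on the scaling. The medians of gene lists below stand against a median over all genes of 0.06 without covariates, 0.05 with the muscle covariate, 0.03 with scan day and 0.02 with both.

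**Figure D1:**
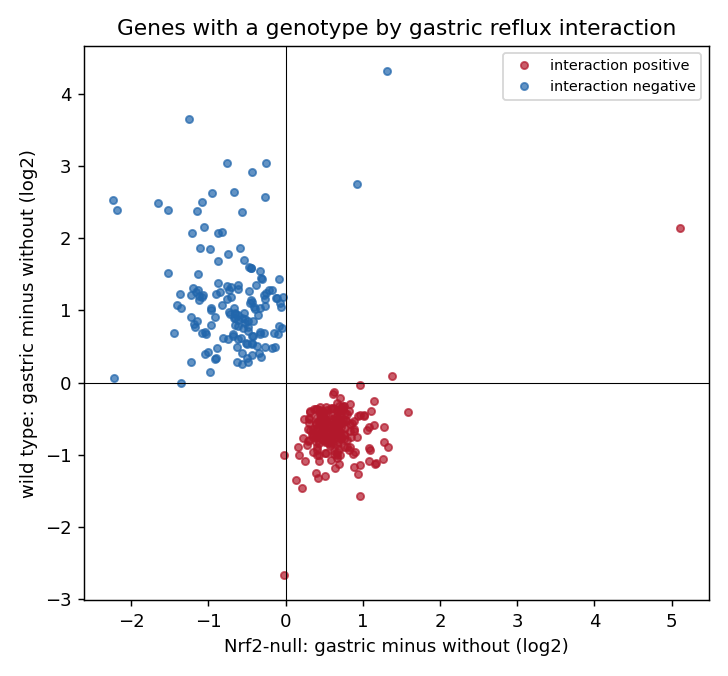
Each point is 1 of the 362 genes with an interaction at an adjusted p under 0.05. The x axis is the log2 difference of gastric reflux minus no reflux in Nrf2-/- mice and the y axis the same in wild type. Positive interactions (212) lie mostly at the lower right and negative ones (150) mostly at the upper left, since the 2 differences had opposite signs in 208 and 148 genes. Choosing genes by the interaction itself favours these corners.

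Of the 38 gene lists described, the cell cycle list had the most members with a positive interaction. Of 30 tested members of the cell cycle list, 11 passed with a positive and 0 with a negative interaction, against 1.03% and 0.731% of all genes. Mitosis turns on cyclins, spindle kinesins, centromere proteins and the anaphase-promoting complex, which cells make mainly while they divide. The members' median was 1.07, against 0.06 over all genes. All 30 values were above 0, and 27 had an unadjusted p under 0.05. Under gastric reflux, 21 of the 30 were higher in Nrf2-/- than in wild type (10.5% of all genes were), and without reflux 0 were (0.0877% of all genes were, and the members' median was -0.29). Within genotypes, gastric reflux raised 1 member and lowered 0 in Nrf2-/- mice, where 0.438% of all genes rose and 0.141% fell, and the members' median was 0.46. In wild type it raised 0 and lowered 8, where 3.06% of all genes rose and 1.06% fell, and the median was -0.62.

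Cdc20 activates the anaphase-promoting complex in mitosis, and its probe lies on chromosome 4 at 118105536 to 118105595 (mm9). It was at 0.00, -0.70 and -0.59 in Nrf2-/- gastric and at -1.55, -1.31 and -1.24 in Nrf2-/- without reflux. It was at -1.06, -1.73 and -1.74 in wild-type gastric. Of wild type without reflux only the third array measured it, at -0.24. Every Nrf2-/- gastric array lay above every Nrf2-/- array without reflux, and every wild-type gastric array lay below the wild-type array without reflux. The interaction was 2.21 ± 0.34 (adjusted p = 0.0115), with 0.94 ± 0.19 in Nrf2-/- (0.0425) and -1.27 ± 0.27 in wild type (0.0272). Cenpa, the histone H3 variant that marks centromeres (chromosome 5, 30976729 to 30976788), was at -0.70, -0.37 and -0.73 in Nrf2-/- gastric, -1.76, -1.51 and -1.13 in Nrf2-/- without reflux, -1.54, -2.11 and -2.30 in wild-type gastric and -1.19 and -0.78 on 2 wild-type arrays without reflux. The groups of each genotype did not overlap, and the interaction was 1.86 ± 0.31 (adjusted p = 0.0125).

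Birc5, or survivin, is a subunit of the chromosomal passenger complex. It was at -0.88, -1.20 and -1.23 in Nrf2-/- gastric and -1.81, -1.65 and -1.82 in Nrf2-/- without reflux, and at -1.62, -2.08 and -2.32 in wild-type gastric and -0.95 on 1 wild-type array without reflux. Its interaction was 1.71 ± 0.31 (adjusted p = 0.0213). Kif23, a kinesin of the central spindle, was at 0.00, -0.74 and -0.62 in Nrf2-/- gastric, -1.20, -1.17 and -1.01 in Nrf2-/- without reflux, -1.34, -1.73 and -1.80 in wild-type gastric, and -0.93 and -0.39 on 2 wild-type arrays without reflux. Its interaction was 1.63 ± 0.33 (adjusted p = 0.0298), and a second probe of the gene gave 1.51. The other members that passed were the kinesin Kif20a (1.58), the cyclins Ccna2 (1.44), Ccnb2 (1.15) and Ccne1 (1.09), the kinases Aurkb (1.34) and Bub1 (0.87), and the spindle factor Tpx2 (1.17). Ccnb2 was measured on 1 wild-type array without reflux, and the numbers of arrays for the others are not given here.

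**Figure D2:**
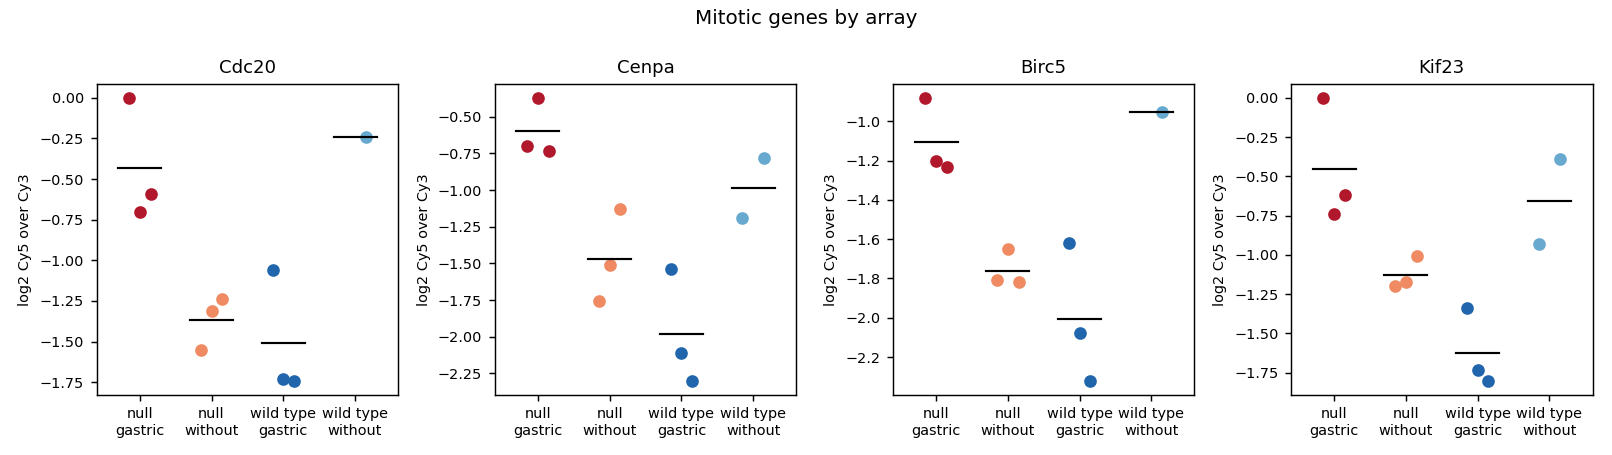
Points are single arrays and bars are group means of log2 Cy5 over Cy3 for Cdc20, Cenpa, Birc5 and Kif23, with Nrf2-/- gastric, Nrf2-/- without, wild-type gastric and wild-type without from left to right. Cdc20 lay at -0.70 to 0.00 in Nrf2-/- gastric, above the -1.55 to -1.24 of Nrf2-/- without reflux, while wild-type gastric (-1.74 to -1.06) lay below the wild-type array without reflux (-0.24).

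Many mitotic genes carry the motif TTTGAA, the core of the cell cycle genes homology region, near the transcription start, often with a CCAAT box upstream. Promoters from RefSeq (GRCm38.p6, 250 bases before to 50 after the first listed start) were found for 22 of the 30 list members. TTTGAA, on either strand, was in 15 of the 22 (68.2%), against 18.1% of all 27025 promoters of this length. CCAAT, on either strand, was in 19 (86.4%), against 37.9%. Of the 7 called members with a promoter, 4 held TTTGAA and 5 CCAAT. The promoters of the 4 members with the largest interactions are shown because these genes moved together. Capitals mark TTTGAA or CCAAT on either strand, and the coordinates are chr4:118437294-118437593 (minus strand) for Cdc20, chr5:30666636-30666935 (plus) for Cenpa, chr11:117848987-117849286 (plus) for Birc5 and chr9:61946750-61947049 (minus) for Kif23.
Cdc20: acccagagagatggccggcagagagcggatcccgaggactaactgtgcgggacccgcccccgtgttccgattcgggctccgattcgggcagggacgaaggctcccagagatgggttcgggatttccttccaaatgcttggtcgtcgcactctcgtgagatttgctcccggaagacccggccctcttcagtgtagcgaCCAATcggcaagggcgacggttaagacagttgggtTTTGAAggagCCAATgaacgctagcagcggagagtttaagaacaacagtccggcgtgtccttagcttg
Cenpa: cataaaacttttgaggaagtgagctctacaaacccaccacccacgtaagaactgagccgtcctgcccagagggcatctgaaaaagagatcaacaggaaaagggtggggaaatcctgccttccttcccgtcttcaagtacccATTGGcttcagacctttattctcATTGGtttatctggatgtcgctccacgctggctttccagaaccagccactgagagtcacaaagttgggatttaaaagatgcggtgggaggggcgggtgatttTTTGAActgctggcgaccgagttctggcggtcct
Birc5: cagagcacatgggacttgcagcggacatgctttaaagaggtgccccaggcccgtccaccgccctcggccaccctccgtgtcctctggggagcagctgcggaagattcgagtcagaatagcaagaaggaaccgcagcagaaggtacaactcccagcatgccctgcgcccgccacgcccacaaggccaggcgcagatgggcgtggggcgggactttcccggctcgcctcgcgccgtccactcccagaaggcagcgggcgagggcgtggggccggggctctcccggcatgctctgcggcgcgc
Kif23: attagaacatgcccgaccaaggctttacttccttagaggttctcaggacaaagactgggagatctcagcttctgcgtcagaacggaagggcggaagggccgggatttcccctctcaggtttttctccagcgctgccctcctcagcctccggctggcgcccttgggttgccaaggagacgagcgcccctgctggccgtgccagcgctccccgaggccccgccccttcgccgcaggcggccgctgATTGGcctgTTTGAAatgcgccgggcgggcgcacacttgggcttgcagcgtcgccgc
TTTGAA lay at -18 from the start site in Cdc20, at 17 in Cenpa and at 3 in Kif23, and the Birc5 window held neither motif. A match is a description of these letters and not a measured binding site.

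The mitotic interaction kept its sign, but not its calls, when muscle content and scan day entered the fit. The median of the list was 0.99 with the mean of 20 skeletal muscle genes as a covariate, 1.03 with scan day as a block and 0.88 with both. The number that passed was 7, 0 and 0, where 1.12%, 0.0488% and 0.0585% of all genes passed. With both terms, 16 members had a positive and 0 a negative value at an unadjusted p under 0.05, and Cdc20 was at 2.02 ± 0.42 (adjusted p = 0.165). The list's median was above 0 in all 29 alternatives, from 0.25 with arrays centred on their medians (0.67 above the median of all genes there) to 1.29. With single arrays left out, 2 to 22 members passed. The count was 15 without the first Nrf2-/- gastric array, 7 without the second, which went against its sex label, and 22, 2 and 3 without the first, the second and the third wild-type gastric array. It was 4 and 3 without the first and second Nrf2-/- array without reflux, 7 and 4 without the first and second wild-type array without reflux, and 4 without both of these. DNA replication genes, from licensing to nucleotide synthesis, had a median of 0.42 over 25 members, of which 0 passed and 8 were positive at an unadjusted p under 0.05. With arrays centred on their medians it was -0.48, where the median of all genes was -0.42. The closest were Tyms, thymidylate synthase (1.04 ± 0.28, adjusted p = 0.0609), and Gins1 of the replicative helicase (0.96 ± 0.27, 0.0677).

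The largest negative interactions, among genes that passed and were measured on at least 2 arrays of each group, were those of Cilp, Thbs4 and Lyve1. Cilp, a matrix protein of cartilage and other connective tissue (chromosome 9, 65128007 to 65128066), was at 1.84, 0.28 and 2.42 in Nrf2-/- gastric and 1.32, 3.62 and 3.35 in Nrf2-/- without reflux, and at 4.20, 5.30 and 5.23 in wild-type gastric and 0.91, 1.51 and 1.35 in wild type without reflux. The wild-type groups were far apart and the Nrf2-/- groups overlapped. Its interaction was -4.91 ± 1.13 (adjusted p = 0.0423), with -1.25 ± 0.80 in Nrf2-/- (0.443) and 3.66 ± 0.80 in wild type (0.0268). Thbs4, a thrombospondin of tendon and muscle matrix, was at 4.54, 2.15 and 3.88 in Nrf2-/- gastric, 4.95, 6.00 and 6.34 in Nrf2-/- without reflux, 5.62, 6.45 and 6.39 in wild-type gastric and 3.65, 3.87 and 3.34 in wild type without reflux. The gastric arrays were thus all below those without reflux in Nrf2-/- and all above them in wild type. Its interaction was -4.78 ± 0.98 (adjusted p = 0.03), with -6.24 at its other probe, but 0.11 in the scanner software's own log ratios.

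Lyve1, the hyaluronan receptor of lymphatic endothelium and some macrophages, was at 1.52, 1.73 and 4.40 in Nrf2-/- gastric, 3.60, 5.07 and 5.50 in Nrf2-/- without reflux, 4.64, 5.39 and 6.16 in wild-type gastric and 3.70, 2.96 and 2.32 in wild type without reflux. Its interaction was -4.58 ± 1.14 (adjusted p = 0.05, just under the threshold), and its second probe gave -3.11. Mmrn1, a multimerin of lymphatic and blood vessel endothelium, had -3.31 ± 0.76 (0.0423). Ecm2, a matrix protein, had -4.14 ± 0.98 (0.0457), with -1.33 at its other probe, and Angptl1, a secreted protein of the angiopoietin-like family, -3.91 ± 0.67 (0.0125). Angptl1 was not well above background on any wild-type array without reflux, so its level there is only a bound. Dio2, the deiodinase that activates thyroid hormone, had -3.36 ± 0.70 (0.0309), and rose by 2.92 ± 0.49 in wild type (0.0111) with -0.44 ± 0.49 in Nrf2-/- (0.69). The remaining large negative values were those of Klhl13 (-3.79), Mamdc2 (-3.59), the potassium channel Kcna5 (-3.58), Tmem100 (-3.52) and the spectrin Sptb (-3.30). Another probe gave 0.22 for Klhl13, -0.36 for Tmem100 and -1.04 for Sptb, and the median over the probes of Klhl13 was 0.04. With muscle and scan day Sptb was at -1.45 (adjusted p = 0.451; -1.55 with muscle alone), Kcna5 at -1.95 (0.488), and Klhl13 at -2.57 (0.455), and none passed. Kcna5 was highest on the second and the third wild-type gastric arrays (4.12 and 4.36, against 1.92 on the first), which were also those of that group highest in muscle genes, and Sptb was at 3.21 and 3.29 there and not measured on the first. The part of muscle in these values was not tested beyond the covariate.

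**Figure D3:**
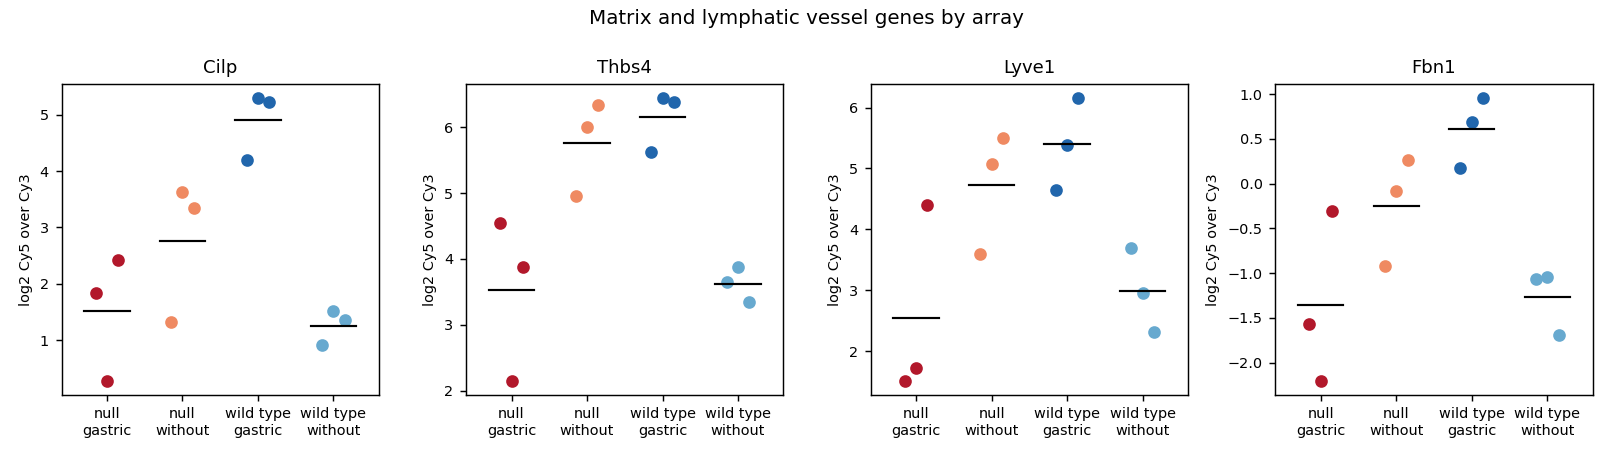
Points are single arrays and bars are group means of log2 Cy5 over Cy3 for Cilp, Thbs4, Lyve1 and Fbn1. Nrf2-/- gastric, Nrf2-/- without, wild-type gastric and wild-type without run from left to right. Wild-type gastric arrays were high for each gene, with Cilp at 4.20 to 5.30 there and 0.91 to 1.51 in wild type without reflux, and Nrf2-/- gastric arrays were spread widely, from 0.28 to 2.42 for Cilp.

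Of 19 tested fibroblast and matrix genes, 2 passed with a negative and 0 with a positive interaction, against 0.731% and 1.03% of all genes. The median was -1.79 and all 19 values were below 0, 13 of them at an unadjusted p under 0.05 (9.34% of all genes were). Fbn1, the microfibril protein fibrillin, was at -1.57, -2.20 and -0.30 in Nrf2-/- gastric and -0.92, -0.08 and 0.26 in Nrf2-/- without reflux. It was at 0.18, 0.69 and 0.96 in wild-type gastric and -1.07, -1.04 and -1.69 in wild type without reflux. The wild-type groups did not overlap, and the interaction was -2.98 ± 0.67 (adjusted p = 0.0383). Fn1, fibronectin, had -1.46 ± 0.32 (0.0362), although another of its 3 probes gave 0.14. The list's median was -1.54 with the muscle covariate and -1.72 with muscle and scan day together, where 0 members passed and 6 were negative at an unadjusted p under 0.05. It lay below 0 in all 29 alternatives (-2.49 to -1), with 0 to 9 members negative at the threshold. Without the Nrf2-/- gastric array that went against its sex label, 0 passed and the median was -1.23, and without the third array of that group 9 passed and it was -2.20. No member passed without the first or second wild-type array without reflux, the second or the third wild-type gastric array, or the second Nrf2-/- array without reflux. Among 15 endothelial genes 0 passed, with a median of -0.71 and 6 negative at an unadjusted p under 0.05. Tek, the angiopoietin receptor, had -3.24 ± 0.84 (adjusted p = 0.055, with 0.04 at its other probe) and Pecam1, a junction protein of endothelium, -1.73 ± 0.49 (0.0677).

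Skeletal muscle genes ranged more widely among the gastric arrays of each genotype than among the arrays without reflux. The mean of 21 skeletal muscle genes was 4.66, 1.39 and 1.54 in Nrf2-/- gastric, 1.55, 2.64 and 2.49 in Nrf2-/- without reflux, 0.39, 4.91 and 4.84 in wild-type gastric, and 0.64, 1.43 and 0.64 in wild type without reflux. The highest values were thus on 1 Nrf2-/- gastric and 2 wild-type gastric arrays. Of 25 muscle genes 0 passed and 3 were negative at an unadjusted p under 0.05, with a median interaction of -2.32, and -0.08 once the covariate made of 20 of them was in the fit. Tnnt1, slow troponin T, had -3.24 ± 1.21 (adjusted p = 0.143) and Pygm, muscle glycogen phosphorylase, -3.50 ± 1.60 (0.218). With the covariate, 229 genes passed (116 positive, 0.565%, and 113 negative, 0.55%), of which 172 were among the 362. Of 12 smooth muscle genes 2 passed with a negative and 0 with a positive interaction, against 0.731% and 1.03% of all genes. The median was -0.99, with 8 values below 0 and 4 above. Myh11, chosen here after its values were seen, was among those above (1.30 ± 0.78, on 1 wild-type array without reflux). Pln, the calcium pump regulator phospholamban (-2.84 ± 0.58, adjusted p = 0.0298), was at 0.21, 0.28 and 0.33 in Nrf2-/- gastric, 0.34, 0.66 and 0.59 in Nrf2-/- without reflux, 1.46, 3.90 and 2.71 in wild-type gastric and 0.11, -0.11 and 0.34 in wild type without reflux. Only the wild-type gastric arrays were well above background, at least 4.33-fold over Nrf2-/- gastric and at least 3.96-fold over wild type without reflux. These bounds set mean Cy5 levels against the higher of the dim gene's own level and each array's lowest level above background, and are open to dye bias. Smtn, smoothelin, had -1.74 ± 0.36 (0.0309). With the muscle covariate Pln (-2.27) and Smtn (-1.46) passed too. With muscle and scan day Pln was at -1.94 (adjusted p = 0.416) and Smtn at -1 (0.479), 0 members passed and the list median was -0.46. No member passed without the first or the second wild-type array without reflux, the third wild-type gastric array, the first or the second Nrf2-/- array without reflux, or the second Nrf2-/- gastric array, and 1 did without the second wild-type gastric array and 3 without the first.

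**Figure D4:**
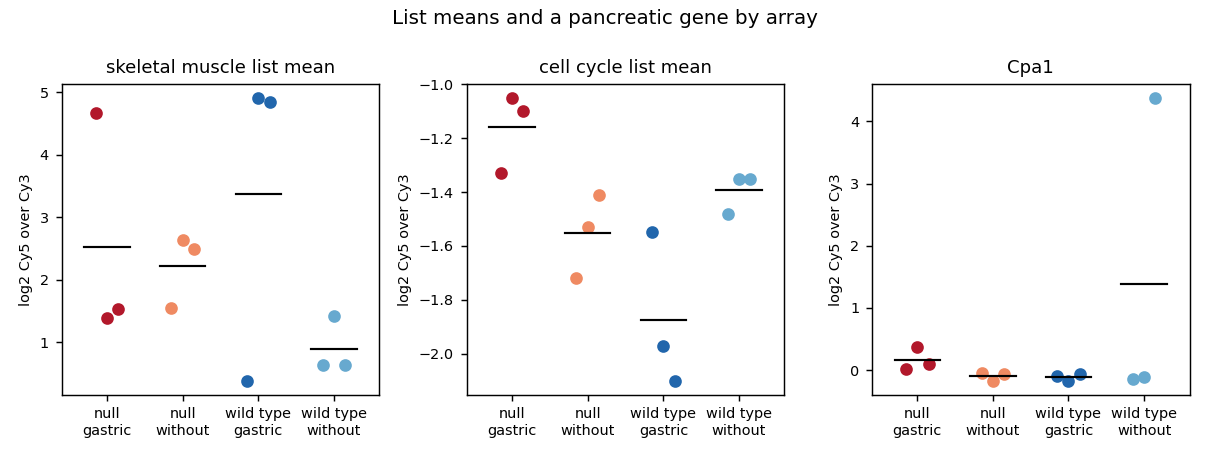
Points are single arrays and bars are group means, in log2 Cy5 over Cy3, of the mean of 21 skeletal muscle genes, the mean of 17 cell cycle genes measured on all 12 arrays, and the pancreatic gene Cpa1. Muscle was highest on the first Nrf2-/- gastric array (4.66) and the second and the third wild-type gastric arrays (4.91 and 4.84), cell cycle genes were at -1.33 to -1.05 in Nrf2-/- gastric and -2.10 to -1.55 in wild-type gastric, and Cpa1 was high on 1 wild-type array without reflux (4.38).

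Clock genes oscillate daily through a loop in which CLOCK and BMAL1 drive their own repressors. Of 17 tested, 4 passed with a negative and 0 with a positive interaction, against 0.731% and 1.03% of all genes, and the median was -0.49. Nr1d1, which encodes the repressor REV-ERBα, was at 0.71, 1.68 and 1.63 in Nrf2-/- gastric and 2.56, 2.67 and 1.93 in Nrf2-/- without reflux, against 2.62, 2.62 and 2.91 in wild-type gastric and 2.21 and 1.82 on 2 wild-type arrays without reflux. The gastric arrays were all lower than those without reflux in Nrf2-/- and all higher in wild type. The interaction was -1.75 ± 0.35 (adjusted p = 0.03), while its other 2 probes gave -0.49 and 0.82. Per1, a repressor of the clock loop, was at -0.52, -1.77 and -1.57 in Nrf2-/- gastric, 0.06, -0.10 and -0.12 in Nrf2-/- without reflux, -1.02, -0.90 and -0.84 in wild-type gastric and -1.10, -0.90 and -1.60 in wild type without reflux. It fell by 1.23 ± 0.25 with reflux in Nrf2-/- (adjusted p = 0.0349), and its interaction was -1.51 ± 0.35 (0.0428). Dbp, an output factor of the clock (-1.45 ± 0.34, 0.0478, with 1 wild-type array without reflux), and Nr1d2 (-0.96 ± 0.23, 0.0464) also passed. The sources used here do not state the time of day at which tissue was taken. With muscle and scan day in the fit the median was -0.47, 0 passed and 6 were negative at an unadjusted p under 0.05 (5.78% of all genes were). Without the second Nrf2-/- gastric array 1 passed. Leaving out any wild-type array without reflux, the second or the third wild-type gastric array, or the first or second Nrf2-/- array without reflux left 0. CLOCK and BMAL1 bind the E-box CACGTG, which was in 1 of the 4 called members' promoters (7.24% of all), that of Per1 (chr11:69098699-69098998, plus strand), shown with the motif in capitals.
Per1: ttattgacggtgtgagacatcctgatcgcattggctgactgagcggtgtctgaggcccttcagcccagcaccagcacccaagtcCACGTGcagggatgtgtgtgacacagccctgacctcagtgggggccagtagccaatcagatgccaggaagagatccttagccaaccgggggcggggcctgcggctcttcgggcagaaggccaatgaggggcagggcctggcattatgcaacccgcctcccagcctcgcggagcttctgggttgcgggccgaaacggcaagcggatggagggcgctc

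Single members of other lists passed. Of all genes, 1.03% passed with a positive and 0.731% with a negative interaction, and a single call is not read here as a result about its list. Of 15 unfolded protein response genes 2 were negative, the chaperone cofactor Dnajb9 (-1.41 ± 0.34, adjusted p = 0.0475) and Herpud1 of the degradation machinery (-0.99 ± 0.24, 0.0482), and the list's median was -0.23. Plau, the urokinase that activates plasminogen, was positive among 23 genes of wounded epithelium (1.82 ± 0.45, 0.0486, list median 0.13), and was at 0.75 with muscle and scan day (0.558). Krt18, a simple epithelial keratin, was negative among 12 columnar genes (-1.36 ± 0.32, 0.0452, list median 0.21), and was at -0.71 with muscle and scan day (0.482). Dnajb9, Herpud1, Plau, Krt18 and Acads did not pass without the second Nrf2-/- gastric array. Acads of fatty acid oxidation was negative among 20 genes (-1.43 ± 0.36, 0.05, list median -0.44). Of 15 basal keratinocyte genes, Dst, which anchors hemidesmosomes, was positive (1.62 ± 0.39, 0.0466, list median 0.78), but its other 3 probes gave -1.61, -1.60 and -0.78. None of 28 squamous keratinocyte genes passed, with a median of 0.78 and 8 positive at an unadjusted p under 0.05. Without the third wild-type array without reflux only 13 of these could be tested, with a median of 0.31. Over the alternatives the squamous median ran from 0.12 to 1.24 and the basal one from -0.08 to 1.32. Krt13 had 1.80 ± 0.48 (adjusted p = 0.0612), with 0.51 at its other probe.

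The Nrf2 targets themselves had no called interaction in the fit without covariates. Of 42 tested, 0 passed in either direction. The median was -0.06, and 2 were positive and 3 negative at an unadjusted p under 0.05. With muscle in the fit the median was -0.31, and 3 were positive and 8 negative at that p. With muscle and scan day it was -0.44, and 0 were positive and 7 negative. Of all genes, 4.64% and 5.78% were in that fit. In both of these fits 0 targets passed. Over the alternatives, 0 to 2 members passed as positive and 0 to 5 as negative, and the median ran from -0.53 to 0.15. The genotype differences were present in both conditions: 25 of the 42 were lower in Nrf2-/- than in wild type under gastric reflux (7.12% of all genes were) and 11 without reflux (0.0828%), and 0 were higher in either. Ephx1, microsomal epoxide hydrolase (-1.11 ± 0.28, adjusted p = 0.0525), and Fth1, ferritin heavy chain (-1.24 ± 0.34, 0.0672), came closest. Nqo1, a quinone reductase chosen here after its values were seen, was at -0.55, -0.76 and -0.86 in Nrf2-/- gastric, -0.83, -0.88 and -0.72 in Nrf2-/- without reflux, 2.85, 1.79 and 2.36 in wild-type gastric and 2.18 on 1 wild-type array without reflux. The genotypes were far apart in both conditions, and the interaction was -0.07 ± 0.36 (adjusted p = 0.93). Among 13 regulators and partners of Nrf2, itself included, 0 passed, 2 were positive and 3 negative at an unadjusted p under 0.05, and the median was -0.61. Mafk, a small Maf partner, had -0.64 ± 0.19 (0.0726) and Rbx1 of the Keap1 ubiquitin ligase 0.79 ± 0.23 (0.0836, on 1 wild-type array without reflux).

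Mitochondrial energy genes had negative medians without a call beyond Acads. The median was -0.53 over 49 oxidative phosphorylation genes, of which 0 passed and 7 were negative at an unadjusted p under 0.05. Cox5a, a subunit of cytochrome c oxidase, had -1.17 ± 0.36 (adjusted p = 0.0945, on 1 wild-type array without reflux). The median was -0.97 over 17 TCA cycle genes, of which 0 passed and 4 were negative at that p. Ogdh of the oxoglutarate dehydrogenase complex had -1.38 ± 0.39 (0.0677). With muscle and scan day in the fit these medians were -0.08 and -0.90. Of 22 glycolysis and hypoxia genes 0 passed, 1 was positive and 6 were negative at an unadjusted p under 0.05, and the median was -0.66. Of 25 NF-kB targets 0 passed and 7 were positive at an unadjusted p under 0.05 (median 0.56), as were 4 of 26 interferon-stimulated genes (median 0.46) and 2 of 16 interleukin 1 family genes (median 0.28), of which 0 passed. Of all genes 12.2% were, so the shares of the interferon and interleukin 1 lists lie near that of all genes.

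In 17 further lists 0 members passed, and the genes named from them did not pass. Markers of other cell types had medians of 0.57 (15 neutrophil genes), 0.43 (15 T and NK cell genes) and 0.24 (7 B and plasma cell genes), against -0.41 (15 macrophage genes), -0.44 (8 mast cell genes), -0.31 (3 blood genes), -0.64 (7 adipocyte genes) and -0.38 (9 nerve and glia genes). Among the genes named from these was the T cell surface protein Cd5 (1.42 ± 0.35, adjusted p = 0.0525, with 1 wild-type array without reflux). Others were the macrophage receptor Mertk (-1.09 ± 0.32, 0.0753) and the mast cell growth factor receptor Kit (-1.84 ± 0.56, 0.0834). Of these lists, 5 macrophage genes were negative and 3 T and NK cell genes positive at an unadjusted p under 0.05. Matrix metalloproteinases and their inhibitors (14 genes) had a median of -0.04, with the inhibitors Timp3 at -3.30 ± 0.79 (0.0513) and Timp2 at -3.67 ± 1.01 (0.0677). Both inhibitors were measured on 1 wild-type array without reflux, and Timp3 could not be estimated with scan day in the fit. Among 14 Wnt genes (0.23) the stem cell receptor Lgr5 was at -1.88 ± 0.54 (0.0711), and among 17 acid-base and ion transporters (0.04) the carbonic anhydrase Car9 was at 1.35 ± 0.35 (0.055). Junction genes had medians of 0.02 (14 of tight junctions, with the claudin Cldn7 at 1.33 ± 0.40, 0.0803) and -0.05 (15 of desmosomes and adherens junctions). The medians were -0.08 for 10 MHC class II genes, 0.01 for 16 immediate early genes, 0.08 for 17 sterol biosynthesis genes and -0.11 for 15 retinoid metabolism genes. The MHC class II median was -1.39 with muscle and scan day in the fit.

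**Figure D5:**
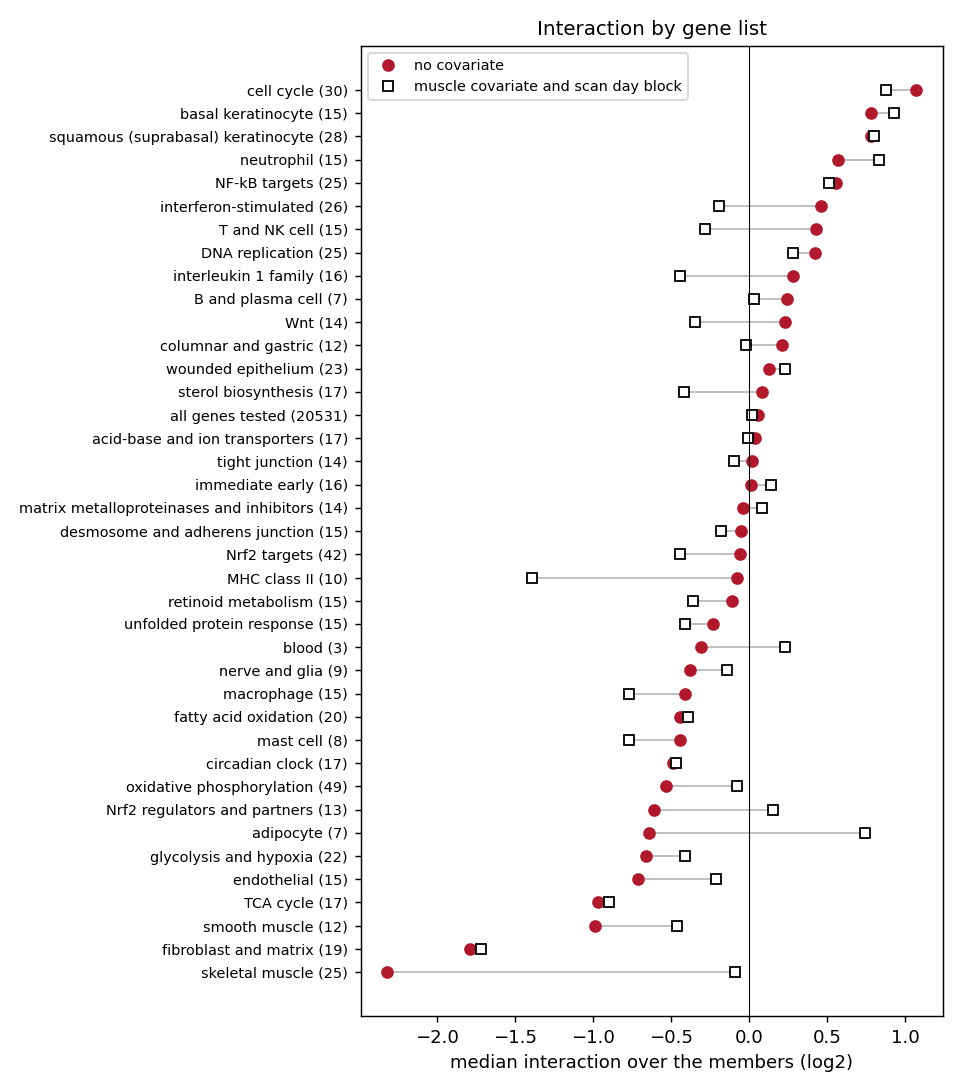
Each row is a gene list, with the number of members tested, and the x axis is the median interaction over its members in log2. Filled circles come from the fit without a covariate and open squares from the fit with the muscle covariate and scan day block. Lists are sorted by the filled circles. Cell cycle genes lie at 1.07 and 0.88, fibroblast and matrix genes near the bottom in both fits (-1.79 and -1.72), and skeletal muscle genes lie at -2.32 without and -0.09 with both terms.

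Among genes that passed and were measured on at least 2 arrays of each group, the largest positive interaction was that of Ahsg, which encodes a plasma glycoprotein made in liver. It was at 5.94, 4.43 and 4.88 in Nrf2-/- gastric, -0.09, -0.06 and 0.08 in Nrf2-/- without reflux, 4.74, 3.76 and 3.57 in wild-type gastric, and 2.19, 1.09 and 2.33 in wild type without reflux. It rose with gastric reflux in both genotypes, by 5.11 ± 0.50 in Nrf2-/- (adjusted p = 0.000249) and 2.15 ± 0.50 in wild type (0.0288), and the interaction was 2.95 ± 0.71 (0.0464). Immune receptors and adaptors among the largest were Tnfrsf4, the T cell costimulator OX40 (2.23 ± 0.38, 0.0125), the Fc receptor Fcgr4 (2.00 ± 0.42, 0.031) and the PI3 kinase adaptor Pik3ap1 (1.99 ± 0.41, 0.03), whose other probes gave 0.45 and 0.16. Tnfrsf4 was at 1.77, 0.68 and 0.89 in Nrf2-/- gastric, -0.12, -0.58 and 0.04 in Nrf2-/- without reflux, -0.41, -0.98 and -1.28 in wild-type gastric and 0.04, -0.01 and 0.00 in wild type without reflux, with no overlap within a genotype. Sis, the brush border enzyme sucrase-isomaltase, had 2.28 ± 0.37 (0.0115). It was not well above background on any Nrf2-/- array without reflux or wild-type gastric array, and was at least 1.99-fold higher in Nrf2-/- gastric than in Nrf2-/- without reflux and at least 2.05-fold lower in wild-type gastric than in wild type without reflux. Csn3, a milk casein (2.29), the uncharacterised C430049B03Rik (2.32), Rnf32 (2.11), the olfactory receptor gene Olfr74 (2.06) and Tspoap1 (2.03) were also among the largest. With muscle and scan day none of these genes passed. Values were then much lower for Csn3 (0.83, adjusted p = 0.529), C430049B03Rik (1.30, 0.41), Sis (1.29, 0.435), Fcgr4 (1.11, 0.487) and Pik3ap1 (1.24, 0.487), and were 3.32 for Ahsg (0.414), 1.90 for Tnfrsf4 (0.409), 2.48 for Rnf32 (0.33), 1.78 for Olfr74 (0.323) and 2.33 for Tspoap1 (0.41). C430049B03Rik was not well above background in either group without reflux.

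Scan day left few calls and changed which genes they were. No scan day held all 4 groups, and with day as a block the estimate equals that from arrays of the same day: all Nrf2-/- gastric arrays against the third Nrf2-/- array without reflux on day 3, and all wild-type gastric arrays against the third wild-type array without reflux on day 2. Each genotype thus had a single array without reflux within its day. The block left 10 genes, 8 positive (0.039%) and 2 negative (0.00976%). Block and muscle covariate together left 12, 8 positive (0.039%) and 4 negative (0.0195%), of which 3 were among the 362. All 212 positive and all 150 negative genes kept their sign in that fit, and 149 and 133 of them had an unadjusted p under 0.05. Their medians were 0.89 and -1.45, against 1.26 and -1.61 without the terms.

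The 6 positive calls of smallest p in that fit were of genes highest on 1 array. They were the pancreatic enzyme and secretory genes Cpa1, Cpb1, Sycn, Clps, Reg1 and Cela3b. Cpa1, carboxypeptidase A, was at 0.02, 0.37 and 0.10 in Nrf2-/- gastric, -0.05, -0.17 and -0.07 in Nrf2-/- without reflux, -0.10, -0.17 and -0.07 in wild-type gastric, and -0.14, -0.11 and 4.38 in wild type without reflux. The third wild-type array without reflux, the one the day block rests on, was the only high one. Cpb1 (3.80), Sycn (3.72), Clps (2.65), Reg1 (3.51) and Cela3b (3.76) were likewise highest there, as was 2210010C04Rik (3.50), another positive call, which the naming rule does not take. With both terms Cpa1 had an interaction of 4.70 ± 0.26 (adjusted p = 8.38e-07), against 1.75 ± 1.05 (0.338) without them. Without that array, Cpb1, Clps and Reg1 had values of -0.31, -0.23 and -0.01 in the fit without covariates. Other pancreatic genes, looked at after the values were seen, were not raised on it. Prss2 was at -0.13 there, Pnlip at -0.18, Amy2a5 at -0.10, Ctrb1 at 0.49 and Cel at 1.27. Amy2a5 was instead high on the second and the third wild-type gastric arrays (2.12 and 1.80).

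The 4 negative calls of the adjusted fit were Lrrn4cl, 9330159F19Rik, Arl15 and Chmp4b. Lrrn4cl, a leucine-rich repeat gene, was at 0.09, -1.19 and -0.44 in Nrf2-/- gastric, 0.19, 1.05 and 1.34 in Nrf2-/- without reflux, 0.71, 1.19 and 1.62 in wild-type gastric and 0.25, 0.80 and -1.24 in wild type without reflux. It was low on all Nrf2-/- gastric arrays and on the third wild-type array without reflux. Its interaction was -3.74 ± 0.47 with both terms (adjusted p = 0.00478) and -2.61 ± 0.60 without (0.0423). 9330159F19Rik had -2.34 ± 0.35 with both terms (0.0237) and -4.10 ± 1.03 without (0.0525). Arl15, a small GTPase of the Arf family, and Chmp4b, a subunit of the ESCRT-III membrane scission complex, fell outside the naming rule because 1 wild-type array without reflux measured them. Arl15 was at -0.46, -0.86 and -0.50 in Nrf2-/- gastric, 0.21, 0.41 and 0.80 in Nrf2-/- without reflux, 0.76, 0.52 and 0.37 in wild-type gastric and -0.15 in wild type without reflux. The groups did not overlap within a genotype. Its interaction was -2.13 ± 0.33 with both terms (0.0354) and -1.77 ± 0.30 without (0.0152). Chmp4b had -1.64 ± 0.24 (0.0239) and -1.21 ± 0.27 (0.0395). Alox12e, an epidermal lipoxygenase gene and the third of smallest unadjusted p in this direction under the rule, had -2.60 ± 0.46 and did not pass (0.0815).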

How the data were processed

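Each of the 24 arrays held oesophageal RNA in Cy5 and the reference RNA in Cy3, with no dye swap. The deposited scanner files give spot and local background intensity per dye and the software's own log10 ratio, per the file headers (Feature Extraction 10.5.1.1 for slide 1 and 10.7.3.1 otherwise), while the submitters' processing notes name version 9.1. The deposited value table holds log2 ratios made by the authors, whose steps the sources used here do not state. Its columns had slopes of 2.58 to 3.14 on the software's log10 ratios and medians of 0.00 to 0.07, and it served as an alternative.

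Intensities were background-corrected (normexp, offset 50), normalized within arrays by loess and turned into log2 of Cy5 over Cy3, without 1639 control spots and without spots marked as outliers. A gene took its brightest probe and was tested where it was well above background on all arrays of at least 1 group. Probes were named through RefSeq accessions (27027), symbols (5011) or synonyms (796), and 8340 kept the name in the file. All 8 groups of the series entered 1 limma fit (limma 3.58.1, R 4.3.3), with Benjamini-Hochberg adjustment over all genes and a threshold of 0.05. The Nrf2-/- mixed reflux arrays correlated at 0.997 to 0.998 and were averaged to 1 sample, giving 22 samples. The fit had a median SE of 0.32. A missing spot drops that array for that gene. On simulated data for 15347 genes, the interaction test called 28% of changes of 1 and 75% of changes of 2 on the log2 scale. The simulation used genes measured on all arrays and the same normal spread in every group, without outlying arrays or scan day. These shares may therefore not hold for the real arrays. P-values measure the spread between arrays of a group, pooled over the groups of the series and not only the 4 compared here. That spread was unequal. Arrays correlated at 0.734 to 0.953 within Nrf2-/- gastric and at 0.986 to 0.994 within wild-type duodenal reflux. With only the 12 arrays in the fit 0 genes passed.

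Named genes were the 12 largest called interactions in each direction with a symbol and at least 2 arrays per group, up to 4 called members of a list (otherwise the 2 of smallest p), up to 6 genes per direction of the fit with muscle and scan day (filled to 3), and Nfe2l2. Some genes that this rule or a count takes are not reported here. The comparison, the lists and the rule were chosen with earlier results of these data known. Alternatives covered normalization, background, probes, scan day, slide, muscle, replicate number and the arrays in the fit.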

Additional observations from a re-analysis of the deposited data

Results flagged for a closer look

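The results here are those for which the difference with gastric reflux differed between Nrf2-/- and wild-type mice by the interaction test in limma at an adjusted p under 0.05. This held for 362 genes. This rule did not screen groups of 3 arrays for single outlying arrays. Arrays that stood apart are described above, and counts with single arrays left out are given below. Values are interactions on the log2 scale.

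Positive values outside the lists were those of Ahsg (2.95), C430049B03Rik (2.32), Csn3 (2.29), Sis (2.28), Tnfrsf4 (2.23), Rnf32 (2.11), Olfr74 (2.06), Tspoap1 (2.03), Fcgr4 (2.00) and Pik3ap1 (1.99). The named cell cycle genes were Cdc20 (2.21), Cenpa (1.86), Birc5 (1.71) and Kif23 (1.63), and Plau (1.82) and Dst (1.62) were the other positive ones. Negative values outside the lists were those of Cilp (-4.91), Thbs4 (-4.78), Lyve1 (-4.58), Ecm2 (-4.14), Angptl1 (-3.91), Klhl13 (-3.79), Mamdc2 (-3.59), Kcna5 (-3.58), Tmem100 (-3.52), Dio2 (-3.36), Mmrn1 (-3.31), Sptb (-3.30) and Lrrn4cl (-2.61). Matrix and smooth muscle genes were Fbn1 (-2.98), Fn1 (-1.46), Pln (-2.84) and Smtn (-1.74), and clock genes Nr1d1 (-1.75), Per1 (-1.51), Dbp (-1.45) and Nr1d2 (-0.96). Acads (-1.43), Dnajb9 (-1.41), Krt18 (-1.36) and Herpud1 (-0.99) were the remaining ones. Of the 362, 121 had another probe, and for 17 a probe had the opposite sign.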

How the results depend on the processing

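The number of genes called was 349 without a filter on dim genes and 487 with the median over probes, against 362. It was 1616 with arrays centred on their medians (16.1% positive, against 58.6%), 2543 with backgrounds as read (49.9%), 213 with the scanner software's log ratios (74.6%), 167 with the deposited value table and 597 with outlier spots kept. It was 10 with scan day as a block, 229 with the muscle covariate, 12 with both, 3248 with slide as a block, where the estimate equals single arrays of shared slides for Nrf2-/-, and 131 with slide as a random block. It was 0 with only the 12 arrays (3408 at an unadjusted p under 0.05), 1168 with the mixed reflux arrays as 3 samples, 1433 without the arrays of low Cy5 and 34 without slide 1. Leaving out single arrays gave 34 (without the second Nrf2-/- array without reflux) to 2071 (without the first wild-type gastric array), of which 34 and 362 were among the 362. The cause of these shifts was not tested. Replicate numbers did not pair the arrays: 18 same-number pairs of deviations correlated at -0.362 to 0.347, 5 over 0.1, and 3 of 12 arrays were closest to their own number. The replicate block gave 133 genes.

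Of the 41 called genes named, 41 stayed past the threshold without the first wild-type gastric array, 21 with the muscle covariate, 1 with muscle and scan day, and 0 with only the 12 arrays. Signs turned for Thbs4 in the scanner ratios (0.11), and with the median over probes for Klhl13 (0.04), Dst (-1.06), Sprr2a1 (-0.10), H2-Ab1 (-0.75), Rdh10 (0.05) and Scnn1a (-1.20). With centring they turned for Cd79b (-0.73), Gins1 (-0.10), H2-Ab1 (-0.10), Dsc2 (-0.05), Nsdhl (-0.42) and Mvd (-0.40), where the median of all genes was -0.42 in place of 0.06, and with backgrounds as read for Il1r2 (-0.26), Slc4a1 (-0.33), Cldn4 (-1.34), Dsc1 (-1.06), Wnt3a (-0.36) and Scnn1a (-0.07). With the slide block they turned for Mzb1 (0.24), H2-Oa (-0.25), Nsdhl (-0.08) and Nfe2l2 (0.60), and with muscle and scan day for Plin4 (0.11), H2-Oa (-0.17), Nsdhl (-0.05) and Nfe2l2 (0.15). Nfe2l2 was also at 0.03 (deposited table), 0.04 (outliers kept) and 0.13 (scan day). With single arrays left out, Cpb1 ran from -0.31 to 1.60, Clps from -0.23 to 1.27, Reg1 from -0.01 to 1.72 and Alox12e from -1.50 to 0.00. The cause was not tested.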

Other observations

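Immune genes were high on single Nrf2-/- gastric arrays. The mean of 25 interferon-stimulated genes was -0.57, -1.37 and 2.34 in Nrf2-/- gastric, -1.20, -1.09 and 0.00 in Nrf2-/- without reflux, -0.60, -1.33 and -1.28 in wild-type gastric, and -1.41, -1.29 and -1.08 in wild type without reflux. The third Nrf2-/- gastric array was the highest of all. It was also the highest for the mean of 14 T and NK cell genes (1.77, against -0.65 to 0.35 on the other arrays). Il1b, the inflammasome-processed cytokine, was instead highest on the first Nrf2-/- gastric array, at 4.56, -0.12 and 0.60 in Nrf2-/- gastric and -0.44, -0.99 and -1.12 in Nrf2-/- without reflux, and at -0.97, -1.87 and -1.46 in wild-type gastric and -0.49, -0.62 and -1.36 in wild type without reflux. Its interaction was 3.14 ± 1.13 (adjusted p = 0.131).

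Albumin transcripts, made by hepatocytes, were high with gastric reflux in both genotypes. Alb, chosen after its values were seen, was at 4.75, 4.05 and 4.26 in Nrf2-/- gastric, -0.01, -0.09 and 0.11 in Nrf2-/- without reflux, 3.88, 3.74 and 3.34 in wild-type gastric, and 0.10, -0.06 and 0.26 in wild type without reflux. It rose by 4.35 ± 0.71 in Nrf2-/- (adjusted p = 0.0141) and 3.56 ± 0.71 in wild type (0.0206), and the interaction was 0.79 ± 1.01 (0.677). How these transcripts came to be in the samples was not tested.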
